A study of Zea mays with 6 samples.

Results

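The genes described here are brown midrib1 (bm1, GRMZM5G844562), which encodes a cinnamyl alcohol dehydrogenase, and brown midrib3 (bm3, AC196475.3_FG004), which encodes a caffeic acid O-methyltransferase. They are 2 of the 39656 annotated maize genes in the table, and they were chosen by their levels in this table, for a difference between the regions, so their levels and ratios are given as a description without a test. RNA was measured in 6 libraries of cells captured by laser microdissection from 8 µm sections of the shoot apex. All came from wild-type seedlings of the inbred strain B73 that were 14 d old, with no mutant and no treatment. There were 2 libraries of the center zone of the apex, 2 of the adaxial sides of leaf primordia P2 and P3, and 2 of the abaxial sides of the same primordia, each made from at least 10 apices, so that a library is a pool of plants. The adaxial side of a leaf primordium faces the meristem and becomes the upper leaf surface, whereas the abaxial side faces away and becomes the lower surface.

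Lignin is a phenolic polymer that stiffens the secondary walls of xylem and fibers. Its building blocks, the monolignols, are made from phenylalanine through the phenylpropanoid pathway, are exported to the wall, and are there oxidized and coupled. Maize brown midrib mutants are known for the reddish-brown color of their leaf midribs and for lignin that is lower in amount or altered in composition, which makes their straw easier to digest. BM1 acts in the last step, the reduction of cinnamaldehydes to monolignol alcohols. BM3 methylates intermediates on the way to syringyl units, with S-adenosylmethionine as the methyl donor.

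Both genes lie in intervals without an overlapping gene model. On B73 RefGen_V3, bm1 is annotated on the minus strand of chromosome 5, from 98993016 to 98997371. The closest gene model in the table, GRMZM5G834458, is 47113 bp away and was listed at 0.0 RPM in each of the 6 libraries. The gene model of bm3 is on the minus strand of chromosome 4, from 32249665 to 32251536. On one side a convergent gene, AC196475.3_FG005 on the plus strand, ends 3456 bp away. RefSeq (assembly Zm-B73-REFERENCE-NAM-5.0) names GRMZM5G844562 as BM1. It does not list AC196475.3_FG004 by that ID, but its entry for caffeic acid O-methyltransferase has GRMZM2G014902 as the next entry with an ID in the table, which is also the gene directly after AC196475.3_FG004 there.

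bm1 transcripts were high in the center zone, low on the adaxial side and close to the limit of detection on the abaxial side. In RPM, the read count scaled to a common number of uniquely aligned reads per library, the center zone libraries were at 55.4 and 30.7, the adaxial libraries at 6.9 and 2.3, and the abaxial libraries at 0.3 and 0.4. The libraries thus fell in the order center zone, adaxial, abaxial, with no overlap between any neighbors in that order. The mean was 43.1 ± 17.5 RPM in the center zone (SD, n = 2), 4.6 ± 3.29 RPM on the adaxial side (SD, n = 2) and 0.349 ± 0.0331 RPM on the abaxial side (SD, n = 2). In these bulk samples, fewer cells that express a gene and less RNA per cell cannot be told apart.

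The level on the adaxial side was 10.7% of the center zone level, and that on the abaxial side was 0.813% of it. The mean ratio of center zone to adaxial side was 9.37, and it ranged from 4.43 to 24.4 over the 4 pairs of libraries. The ratio of center zone to abaxial side was 123, with a range of 82.3 to 170, and that of adaxial to abaxial side was 13.1, with a range of 6.09 to 21.2. Replicate 1 was 3.05 times replicate 2 on the adaxial side and 1.81 times replicate 2 in the center zone. Without adaxial replicate 1 the ratio of center zone to adaxial side was 19.0, and without adaxial replicate 2 it was 6.22. Likewise the ratio of adaxial to abaxial side was 6.49 without adaxial replicate 1 and 19.8 without adaxial replicate 2.

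The reads behind these levels differed widely in number. The center zone values rest on 1336 and 703 counts, the adaxial values on 170 and 61, and the abaxial values on 5 and 6. Exact Poisson 95% intervals were 0.106 to 0.761 RPM and 0.137 to 0.812 RPM for the abaxial libraries, and 1.74 to 2.91 RPM for adaxial replicate 2. Such intervals cover counting error only, because amplified reads are not independent molecules. With 1 RPM added to each mean, the ratio of center zone to abaxial side became 32.6 and that of adaxial to abaxial side 4.15, so the size of both rests on how a level of a few reads is treated, while the order of the regions does not. The same order without overlap held in 850 of the 17993 genes with a mean of at least 2 RPM in at least 1 region, which is 4.72% of them.

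bm3 transcripts were near the limit of detection in each of the 6 libraries. Only 36 reads were counted in all, 6 and 17 in the center zone libraries, 12 and 1 in the adaxial libraries, and 0 and 0 in the abaxial libraries. In RPM computed from the counts, these were 0.249 and 0.742 in the center zone, 0.489 and 0.0372 on the adaxial side, and 0 in both abaxial libraries. The values of the center zone and of the adaxial side overlapped, and adaxial replicate 1 exceeded center zone replicate 1.

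The mean bm3 level was 0.495 ± 0.349 RPM in the center zone (SD, n = 2) and 0.263 ± 0.319 RPM on the adaxial side (SD, n = 2). The ratio of these means was 1.88, and the ratios of the 4 pairs of libraries ran from 0.510 to 19.9. A difference between the center zone and the adaxial side was thus smaller than the spread between the replicates. The ratio became 0.947 without center zone replicate 2, 1.01 without adaxial replicate 2 and 13.3 without adaxial replicate 1. The 12 reads of adaxial replicate 1 against 1 in adaxial replicate 2 are the widest replicate gap of the gene, and the exact Poisson 95% intervals of these libraries, 0.252 to 0.853 RPM and 0.000942 to 0.207 RPM, do not overlap.

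In the abaxial libraries a level of up to 0.196 RPM in replicate 1 and 0.186 RPM in replicate 2 could give 0 reads, at 3 counts per library, and 0.0955 RPM at 3 counts over both libraries. Against this last floor, mean bm3 was at least 5.19-fold higher in the center zone and at least 2.75-fold higher on the adaxial side. Both bounds take the higher mean as exact, without counting error. Adaxial replicate 2, at 0.0372 RPM, lay below this floor. At 3 counts per library, the 4 library pairs of center zone and abaxial side gave bounds of 1.27 to 3.98. The first bound, 5.19-fold, became at least 2.61-fold without center zone replicate 2. It was at least 2.66-fold and at least 2.53-fold without abaxial replicate 1 or 2, since the floor then rests on fewer reads. The second bound rests on adaxial replicate 1, which holds 12 of the 13 adaxial reads. It was at least 1.41-fold and at least 1.34-fold without abaxial replicate 1 or 2, and without adaxial replicate 1 no ratio could be given, because 1 count then stood against 0. The abaxial libraries were also the shallowest, at 14718269 and 15453375 counts in genes against 21970034 to 25898155 in the other 4. bm3 was not detected in them, and the part of depth in this was not tested.

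The gene that converges on bm3, AC196475.3_FG005, was listed at 355.4 and 408.6 RPM in the center zone, 117.4 and 90.6 RPM adaxially, and 107.5 and 121.0 RPM abaxially. The neighbor was highest in center zone replicate 2, in which bm3 also had its most reads, 17. The abaxial libraries, in which bm3 had no read, were close in this neighbor to adaxial replicate 1, in which bm3 had 12 reads. Whether reads of this neighbor reach the bm3 model was not tested.

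**Figure D1:**
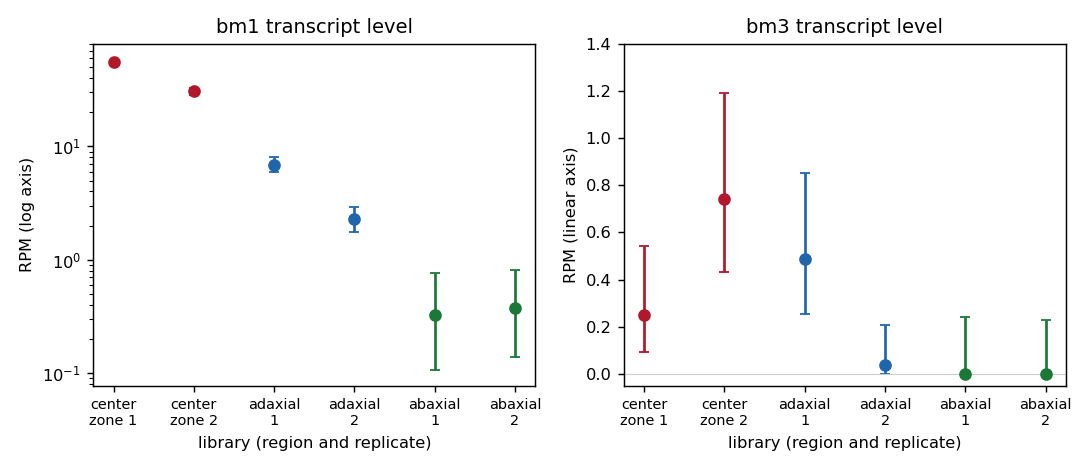
Transcript level of bm1 (left, log axis) and bm3 (right, linear axis) in RPM in each of the 6 libraries, with exact Poisson 95% intervals that cover counting error only. The bm1 values step down from 55.4 and 30.7 RPM in the center zone to 0.3 and 0.4 RPM on the abaxial side without overlap, whereas the bm3 values of the center zone and the adaxial side overlap and both abaxial libraries are at 0.

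The regions were checked with marker genes. The 6 meristem markers, KNOX homeobox genes and abph1, a cytokinin response regulator, summed to 1432 and 1198 RPM in the center zone, 20.6 and 17.2 RPM adaxially, and 16.1 and 10.1 RPM abaxially. The 8 YABBY genes, which mark leaf primordia, summed to 91.3 and 23.5 RPM in the center zone and to 567 to 579 RPM in the 4 leaf libraries. The 3 abaxial markers, kan1, kan3 and mwp1, summed to 83.7 and 80 RPM on the abaxial side and to 1.4 to 5.5 RPM elsewhere. Of the 2 adaxial markers, IG1 was at 201.0 and 181.8 RPM on the adaxial side and at 3.9 to 10.9 RPM elsewhere, and rld1 was at 475.1 and 470.6 RPM there against 349.2 to 444.1 RPM elsewhere. Like each of the meristem markers, bm1 was highest in the center zone, and their part in its level was not tested. Per gene, the adaxial level as a share of the center zone level was 0.591% for kn1, 4.44% for lg3, 2.22% for knox4, 3.81% for knox8 and 5.29% for abph1, each below the 10.7% of bm1. The abaxial share was below the adaxial one for bm1 (0.813%), kn1, knox4, knox8 and abph1. For lg3 it was above, at 12.3%.

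Lignin is laid down in vascular tissue, and genes of the vasculature and the secondary wall were therefore given beside bm1 and bm3. The 11 members of this list summed to 247 and 231 RPM in the center zone, 755 and 700 RPM adaxially, and 577 and 503 RPM abaxially. SCR, a GRAS factor of the endodermis and bundle sheath, made up most of each sum, at 129.5 to 663.6 RPM. The defining cellulose synthases of secondary walls were at or near 0. Both IDs of cesa11 were listed at 0.0 RPM in each library, and CesA12 was at 1.2 and 0.1 RPM in the center zone and at most 0.1 RPM in the leaf libraries. cesa10 was an exception, at 83.9 and 99.5 RPM in the center zone and 60.4 to 77.7 RPM in the leaf libraries. The summed level of this list was lowest in the center zone, where bm1 was highest, but this order was that of SCR. Without SCR, left out after its values were seen, the other 10 members summed to 117 and 102 RPM in the center zone. They summed to 91.3 and 83.8 RPM adaxially, and 78.6 and 69.7 RPM abaxially, so this sum was highest in the center zone. Most of each of these sums was cesa10 alone, which was not called in any comparison. Its log2 fold change for center zone against both leaf sides was 0.24 (SE 0.17, edgeR adjusted p = 0.28). The list's part in the bm1 level was not tested.

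The question that follows is whether the other genes of lignin synthesis show a similar distribution. Besides bm1 and bm3, 27 IDs were named as a pathway enzyme, a brown midrib locus, a laccase or a regulating MYB factor. No name matched cinnamate 4-hydroxylase, the shikimate transferase, coumarate 3-hydroxylase, caffeoyl shikimate esterase or ferulate 5-hydroxylase, so these steps are not analysed here. Of the 27, 11 reached a mean of 2 RPM in at least 1 region and were tested with edgeR's quasi-likelihood test, with Benjamini-Hochberg adjustment over all 17993 genes tested and calls at an adjusted p under 0.01. Of bm1 and bm3, bm1 passed this filter, through the center zone and the adaxial side, and bm3 did not. The 4 comparisons share libraries and are therefore not independent of each other.

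Between the center zone and the adaxial side, 1 of the 11 pathway genes was called higher in the center zone and 0 lower, against 12.0% of all genes called, 6.38% higher and 5.61% lower. Between the center zone and the abaxial side, 2 were called higher and 0 lower, against 10.6% of all genes, 6.22% higher and 4.42% lower. Between the center zone and both leaf sides combined, 3 were called higher and 0 lower, against 18.7% of all genes, 10.9% higher and 7.83% lower. Between the adaxial and the abaxial side, 0 of the 11 were called by edgeR, against 0.0723% of all genes. Of all genes, 0.05% were called higher and 0.0222% lower on the adaxial side. At an unadjusted edgeR p under 0.05 were 0 of the 11, against 943 of all 17993 genes. DESeq2 called 0 of the 11, against 195 of all genes. With 11 genes tested, shares of this size are close to the background and are no result about the pathway. The median log2 fold change of the 11 genes was -0.79 for center zone against adaxial side, beside 0.03 over all genes. It was -0.53 for center zone against abaxial side, beside 0.03, and 0.16 for adaxial against abaxial side, beside 0.01. In each of the 3 comparisons with the center zone, 4 of the 11 genes had a positive log2 fold change, and the called genes were among these. In deposited RPM, both center zone libraries were above all 4 leaf libraries for 3 of the 11 genes, against 36.9% of all genes tested, and below them for 5 of the 11, against 22.9%. Of the genes described next, 4CL and CCR passed the filter only through the center zone, where they were high. A difference in that direction was thus built into their being tested. CCR is 1 of the 3 genes called higher than in both leaf sides combined. CCOAOMT2 passed only through the leaf sides, where it was high, so the same holds for it in the other direction.

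At the first step stands PAL1 (GRMZM2G074604), a phenylalanine ammonia-lyase, which takes phenylalanine into the pathway. Its level was 84.1 and 7.8 RPM in the center zone, 123.3 and 175.3 RPM adaxially, and 54.6 and 48.3 RPM abaxially. The adaxial libraries were the highest, while the center zone libraries lay on either side of the abaxial ones, and no comparison was called (edgeR adjusted p from 0.27 to 1). The 4-coumarate-CoA ligase 4CL (GRMZM2G075333), which activates coumarate for the later steps, was at 6.8 RPM in center zone replicate 1 and at 0.0 to 0.3 RPM in the other 5 libraries. These are 164 counts in that library against 2 in center zone replicate 2, and the edgeR log2 fold change against both leaf sides of 4.87 (SE 1.5, adjusted p = 0.0451) was not called.

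The caffeoyl-CoA O-methyltransferases, which like BM3 methylate a ring hydroxyl but act on the CoA ester, had their lowest values in the center zone. ccoaomt1 (GRMZM2G127948) was at 13.7 and 7.0 RPM in the center zone, 20.4 and 25.4 RPM adaxially, and 21.9 and 21.0 RPM abaxially, and the center zone did not overlap with the leaf. Its edgeR log2 fold change for center zone against both leaf sides was -1.25 (SE 0.30, adjusted p = 0.0164), which missed the threshold. CCOAOMT2 (GRMZM2G099363) was at 1.8 and 0.3 RPM in the center zone, 3.0 and 1.9 RPM adaxially, and 4.6 and 3.7 RPM abaxially, and was not called.

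Cinnamoyl-CoA reductase acts directly before cinnamyl alcohol dehydrogenase. CCR (GRMZM2G131205) was at 13.8 and 4.2 RPM in the center zone, 2.0 and 1.6 RPM adaxially, and 0.9 and 1.1 RPM abaxially. As for bm1, the libraries fell in the order center zone, adaxial, abaxial without overlap. The same order held in 4.72% of all genes tested. Between the leaf sides the edgeR log2 fold change of CCR was 0.91 (SE 0.62) and was not called. The order of the leaf sides in CCR was thus not beyond the spread. CCR was called higher in the center zone than in both leaf sides together, with an edgeR log2 fold change of 2.61 (SE 0.49, adjusted p = 0.00664). It was not called against the adaxial side (2.15, adjusted p = 0.034) or the abaxial side (3.06, adjusted p = 0.0135). The call rests on center zone replicate 1, without which the log2 fold change was 1.55 and the call was lost. It was also lost without each leaf library in turn, at log2 fold changes of 2.55 to 2.67. Calls over all genes fell without a leaf library too. The paralog ccr2 (GRMZM2G131836) was at 0.7 RPM in center zone replicate 1 and at 0.0 RPM in the other 5 libraries, and was not tested.

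cad1 (GRMZM2G046070), by its symbol a further cinnamyl alcohol dehydrogenase gene and on chromosome 2 from 10531049 to 10535293 (minus strand), was at 12.1 and 12.7 RPM in the center zone. It was at 1.5 and 1.4 RPM on the adaxial side and at 2.6 and 2.1 RPM on the abaxial side. The center zone stood clear of the leaf and its replicates were close, but the leaf sides ranked in the reverse order from bm1. cad1 was called higher in the center zone than on the adaxial side, with an edgeR log2 fold change of 2.92 (SE 0.37, adjusted p = 0.00253, 7.59-fold). It was likewise higher than on the abaxial side, at 2.28 (SE 0.37, edgeR adjusted p = 0.00553, 4.87-fold), and than in both leaf sides together, at 2.60 (SE 0.29, edgeR adjusted p = 0.000964). The last call held when each of the 6 libraries was left out in turn. The call against the adaxial side was lost without adaxial replicate 1 or 2, at log2 fold changes of 2.94 and 2.91. That against the abaxial side was lost without center zone replicate 2 and without any of the 4 leaf libraries, at 2.12 to 2.45. Calls over all genes fell in these fits too. Between the leaf sides the log2 fold change of cad1 was -0.64 (SE 0.36, edgeR adjusted p = 1), so the reverse order of the sides was not beyond the spread.

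**Figure D2:**
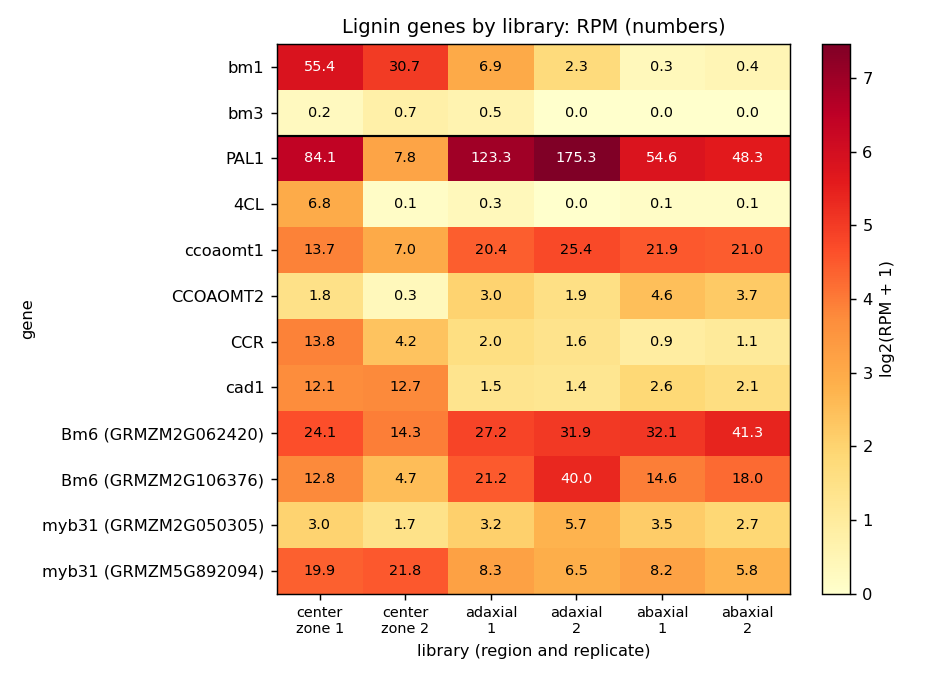
Levels of bm1, bm3 and the tested pathway genes named in the text in the 6 libraries. The color gives log2(RPM + 1) and the number in each cell the deposited RPM, and because RPM is not corrected for length, rows are to be compared along a row and not with each other. bm1, CCR and cad1 are high in both center zone libraries, whereas ccoaomt1, CCOAOMT2 and both Bm6 genes are lower in the center zone mean than in the leaf means.

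Downstream of the dehydrogenases, laccases oxidize monolignols in the wall. Of 13 laccase IDs, 9 had 0 counts in each of the 6 libraries, 0 reached the filter, and the highest value in any library was 0.7 RPM. In these libraries a gene with no read may still have been at up to 0.112 to 0.196 RPM (3 counts). bm3 was thus not alone in being near the limit of detection in these regions.

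Other brown midrib loci act on methyl supply rather than on the phenylpropanoid skeleton. The bm6 locus encodes a GTP cyclohydrolase of folate synthesis, upstream of the S-adenosylmethionine that BM3 uses. The symbol Bm6 belonged to 2 IDs. GRMZM2G062420 was at 24.1 and 14.3 RPM in the center zone, 27.2 and 31.9 RPM adaxially, and 32.1 and 41.3 RPM abaxially, and GRMZM2G106376 at 12.8 and 4.7, 21.2 and 40, and 14.6 and 18.0 RPM in the same order. Both had center zone libraries below all leaf libraries and neither was called. sam2 (GRMZM2G154397), an S-adenosylmethionine synthase, was between 754.3 and 1301.5 RPM in the 6 libraries and its adaxial libraries overlapped with both other regions. Of the 4 methyl-supply genes tested 0 were called in any comparison by edgeR. At an unadjusted edgeR p under 0.05 were 3 for center zone against adaxial side, 2 against the abaxial side and 0 between the leaf sides. Over all 17993 genes tested, these numbers were 8030, 7705 and 943. DESeq2 called GRMZM2G106376 lower in the center zone than on the adaxial side, and GRMZM2G062420 lower there than on the abaxial side. It called both Bm6 IDs lower in the center zone than in both leaf sides together.

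The maize factor MYB31 is known as a repressor of lignin genes, among them that of caffeic acid O-methyltransferase. Its RefSeq entry covers 2 neighboring IDs on the minus strand of chromosome 2. GRMZM5G892094, from 196298844 to 196302551, was at 19.9 and 21.8 RPM in the center zone, 8.3 and 6.5 RPM adaxially, and 8.2 and 5.8 RPM abaxially. It was called higher in the center zone than on the abaxial side, at a log2 fold change of 1.47 (SE 0.28, edgeR adjusted p = 0.00993), and than in both leaf sides together, at 1.4 (SE 0.23, edgeR adjusted p = 0.00385). Against the adaxial side it was at 1.33 and missed the threshold (edgeR adjusted p = 0.0122). The first of these calls was lost without center zone replicate 2 and without any leaf library, and so was the second. The log2 fold changes were then 1.22 to 1.74 for the first and 1.28 to 1.54 for the second. Calls over all genes fell in these fits too.

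The other ID of the entry, GRMZM2G050305, from 196293689 to 196295310, was at 3.0 and 1.7 RPM in the center zone, 3.2 and 5.7 RPM adaxially, and 3.5 and 2.7 RPM abaxially. The abaxial values overlapped with both other regions, the center zone values lay below the adaxial ones, and no comparison was called. The IDs of this entry therefore differed in their pattern, and which of them carries the MYB31 transcript cannot be told apart from these names. A related factor, myb42 (GRMZM2G419239), was at 0.8 RPM in center zone replicate 1 and at 0.0 RPM elsewhere.

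Center zone replicate 1 stood apart from replicate 2 in these genes. Of the 11 tested pathway genes, 9 were higher in replicate 1, and 5 (45.5%) were over 2-fold higher after 1 RPM was added to each value. This was so for 8.81% of all genes tested, whereas 0.589% were over 2-fold lower in replicate 1. Within the adaxial and the abaxial pair, 0 of the 11 differed over 2-fold in this measure. The ratio of replicate 1 to replicate 2 in the center zone was 10.8 for PAL1, 6.97 for CCOAOMT2 and 3.30 for CCR, but 0.947 for cad1 and 0.913 for GRMZM5G892094.

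For bm1 this ratio was 1.81, and for bm3 it was 0.336, in the opposite direction. Without center zone replicate 1, the bm1 ratio was 6.68 to the adaxial side and 87.8 to the abaxial side. In the same library 7 of the 11 vascular and secondary wall genes were higher than in replicate 2 and 2 were lower, with DOF22 at 24.7 against 0.8 RPM, and the 8 YABBY genes were at a summed 91.3 against 23.5 RPM. Their part in the pathway values was not tested.

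Leaving this library out changed the pathway counts. For center zone against both leaf sides, 8 of the 11 genes were then called, 2 higher in the center zone and 6 lower, in place of 3 higher and 0 lower. The lower genes included PAL1, ccoaomt1, CCOAOMT2 and both Bm6 genes, while cad1 was called higher with and without this library. With replicate 1 left out, the lone center zone library is assumed to vary like the leaf libraries. Across all genes, the calls of this comparison rose from 3370 to 4472.

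**Figure D3:**
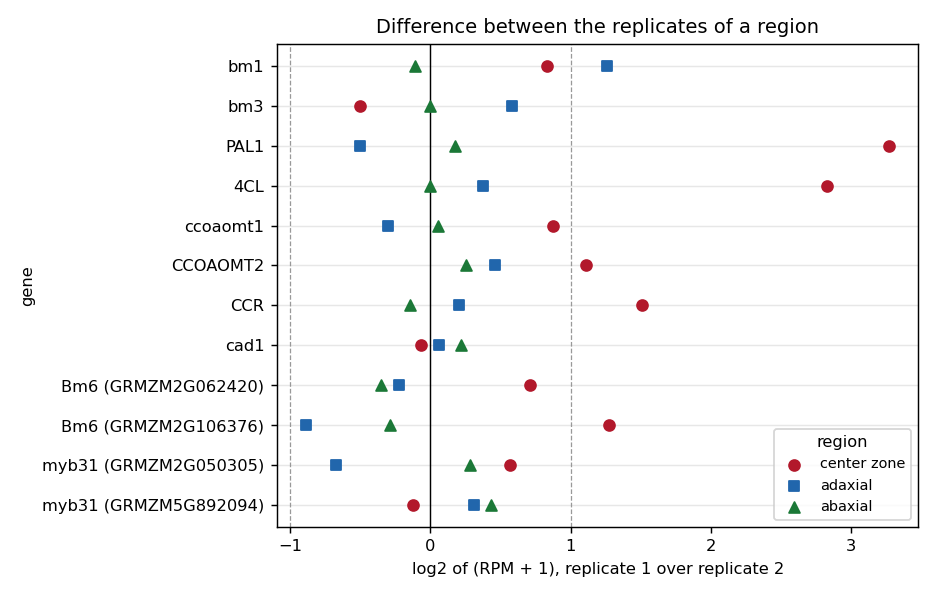
Difference between the 2 replicates of each region for bm1, bm3 and the tested pathway genes named in the text, as log2 of (RPM + 1) in replicate 1 over replicate 2, with dashed lines at a 2-fold difference. The center zone points (circles) of PAL1, 4CL, CCR, CCOAOMT2 and GRMZM2G106376 lie beyond the right line, those of cad1 and GRMZM5G892094 lie near 0, and the bm3 center zone point lies left of 0.

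The profile of bm1 over the 6 libraries was compared with those of the 1816 genes that have a symbol and passed the filter. Likeness was the root mean square difference of log2(RPM + 1), each profile being centered on its own mean, and the points share the depth and the cell capture of each library. Of the 5 closest, 4 are described.

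GLN6, a glutamine synthetase gene, was at a difference of 0.555 on the log2 scale. It was at 31.8 and 14.6 RPM in the center zone and at most 2.6 RPM in a leaf library. abph1 followed at a difference of 0.623, with 89.2 and 63.9 RPM in the center zone, 3.4 and 4.7 RPM adaxially, and 0.5 and 0.4 RPM abaxially. RR6, a response regulator gene by its symbol, stood at 0.644, and BIF4, an auxin signaling repressor of the Aux/IAA family, at 0.674. These 4 genes were picked for their likeness to bm1 over the same libraries, so a shared order is no separate result. Each was higher in both center zone libraries than in any leaf library, as were 36.9% of all genes tested. Ranked by Pearson correlation instead, 1 of the 5 stayed among the first 5.

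For bm3 the 5 closest profiles were those of CID11, sbp9, GPDH3, smh3 and ftr1, at differences of 0.109 to 0.144. The bm3 profile itself spans only 0.77 on the log2(RPM + 1) scale, against 5.44 for bm1, so the measure picks genes that barely vary between the libraries, and in counts this sparse the likeness carries little information.

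**Figure D4:**
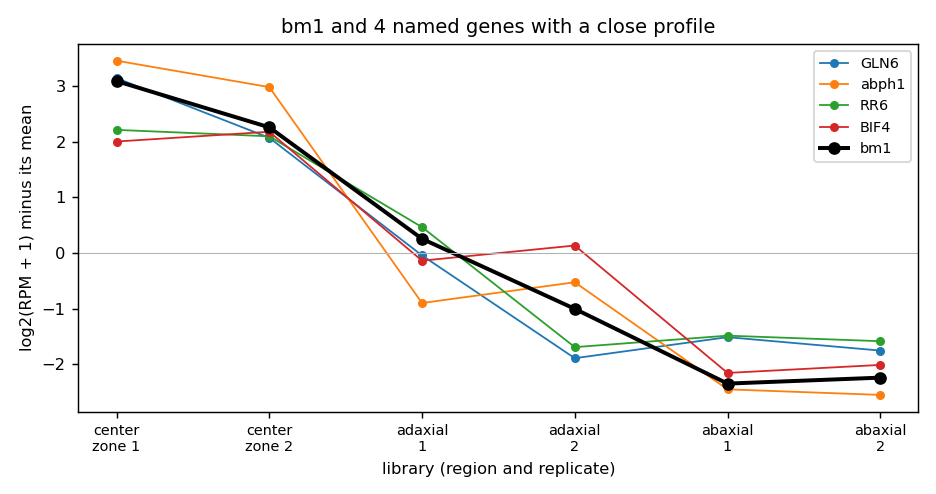
Profiles of bm1 (black) and of the 4 described genes with a close profile over the 6 libraries, as log2(RPM + 1) minus the mean of each gene. Each profile is above its mean in both center zone libraries and below it in both abaxial libraries, and they spread most in adaxial replicate 2.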

How the data were processed

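RNA of laser-microdissected cells was amplified linearly over 2 rounds and sequenced as single-end reads of 100 bp. The authors trimmed bases under a Phred value of 15, aligned reads with GSNAP (version not given in the sources used here) to B73 RefGen_V3, kept reads that aligned uniquely with up to 2 mismatches per 36 bp and counted them per gene (annotation FGSv5b). The deposited table holds these raw counts for each library and the RPM of the authors, rounded to 1 decimal. RPM takes every uniquely aligned read as its base and is not corrected for gene length, since amplification keeps the 3′ ends of transcripts; levels of different genes are therefore not compared. Count totals per library ran from 14718269 to 25898155, and 3 counts equal 0.112 to 0.196 RPM. The counting was not stated to use strand.

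Counts were tested with edgeR 4.0.16 in R 4.3.3 (TMM, robust quasi-likelihood F test, 1 fit of 3 groups) for the 17993 genes whose mean reached 2 RPM in a region, at a Benjamini-Hochberg adjusted p under 0.01. The study used DESeq at this threshold. The script was tested on simulated counts. bm1 and bm3 are given as RPM from counts, as ratios and with exact Poisson 95% intervals. Genes named are bm1 and bm3, each tested pathway and methyl-supply gene, the 5 closest named profiles and the marker lists. ccr2, myb42 and the bm3 neighbor are named outside this rule, after their values were seen. Names came from RefSeq (Zm-B73-REFERENCE-NAM-5.0), in which 18775 of the 39656 IDs matched and 2661 had a symbol; the markers not matched there were left out. Some genes that these rules name are not reported here, though counts and sums over lists include them. The members and lists were chosen with earlier results of these data known. A search for protein relatives and promoter motifs was planned and not run. Alternatives were DESeq2 1.42.0, scaling by library size, no filter or one of 10 RPM, a threshold of 0.05, a replicate block, only the groups compared, each library left out, and for ratios 1 RPM added and other scalings.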

Additional observations from a re-analysis of the deposited data

How the results depend on the processing

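The order of the bm1 means held under each alternative run. With 1 RPM added to each mean, the bm1 log2 ratio fell from 6.94 to 5.03 for center zone against abaxial side and from 3.72 to 2.05 for adaxial against abaxial side, and the bm3 ratio from 2.38 to 0.58 for center zone against abaxial side, by the construction of a pseudocount on levels below 1 RPM. With libraries left out, the bm3 log2 ratio of center zone to adaxial side ranged from -0.08 to 3.74. The bm3 values rest on few reads, 36 in all.

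Pathway counts moved with the threshold and the tool. For center zone against adaxial side, 1 gene was called, 6 at an adjusted p under 0.05, 6 by DESeq2 (3 higher, 3 lower), 2 with library size alone, 2 without a filter and 0 to 4 with libraries left out. For center zone against abaxial side, 2 were called, 6 at 0.05, 5 by DESeq2 (3 higher, 2 lower), 1 with only the 2 groups compared and 0 to 6 with libraries left out. For center zone against both leaf sides, 3 were called, 7 at 0.05, 8 by DESeq2 (4 higher, 4 lower) and 1 to 8 with libraries left out. Each upper end is the fit without center zone replicate 1, and the lower ends are those without a leaf library of the comparison, or of either side for the abaxial comparison. Over all genes, DESeq2 called 5125, 4847 and 6151 against 2157, 1915 and 3370 by edgeR, and 195 against 13 between the leaf sides. The cause of these differences was not tested. Of the alternative results of the called genes, 48 stayed called, 26 did not and 0 reversed. The 48 include the threshold of 0.05 for each call, which repeats the same fit and could not lose a call.

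Replicate numbers are shared between the groups, but nothing says that they pair the libraries, and the replicate differences of the groups correlated at -0.06 to 0.19 across genes. With the replicate number as a block, 1, 0, 0 and 2 pathway genes were called for the center zone against the adaxial side and the abaxial side, between the leaf sides, and for the center zone against both, and all-gene calls were 991, 953, 0 and 2113. The calls of cad1 (log2 fold change 2.29) and GRMZM5G892094 (1.49) against the abaxial side were lost. So was that of CCR against both leaf sides (2.45).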

Other observations

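Cellulose is laid down in the same walls as lignin, and its synthase genes were looked at after their values had been seen. Of 15 IDs named as cellulose synthases, 9 were tested. For center zone against both leaf sides edgeR called 1 higher and 2 lower, against 18.7% of all genes called. CesA-5 was higher in the center zone, at 104.2 and 118.0 RPM against 44.1 to 58.8 RPM in the 4 leaf libraries (log2 fold change 0.90, SE 0.16, edgeR adjusted p = 0.00485). CesA-1 and CesA-8 were lower there. CesA-8 was at 27.5 and 17 RPM in the center zone against 47.0 to 51.0 RPM in the leaf libraries (log2 fold change -1.26, SE 0.22, edgeR adjusted p = 0.00509), and CesA-1 was at 21.2 and 14.7 RPM against 33.9 to 44.1 RPM (log2 fold change -1.23, SE 0.20, edgeR adjusted p = 0.00398). Between the adaxial and the abaxial side 0 of the 9 were called by edgeR and 0 had an unadjusted p under 0.05. Over all 17993 genes tested, these numbers were 13 and 943. Of the secondary wall genes, cesa11 and CesA12 did not reach the filter, and cesa10 was tested and not called. Its log2 fold change for center zone against both leaf sides was 0.24 (SE 0.17, edgeR adjusted p = 0.28).

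The gene on the other side of bm3, GRMZM2G014902, 246614 bp away, was at 65.7 and 40.1 RPM in the center zone but at 27.4 and 0.3 RPM adaxially, and 23.0 and 0.1 RPM abaxially. Its value thus differed more between the replicates of a leaf side than between the leaf sides, with replicate 1 high in each.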
